A study of Homo sapiens with 4 samples.

Results

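SHROOM3, GDF7 and ZNF248 are 3 human genes in which m6A-immunoprecipitated RNA was more abundant at a discrete site in WT than in slow-polymerase HEK293 cells, in both pairs of libraries. The peaks described here are those that overlap the hg19 interval of each gene by at least 1 bp, which gave 12 of the 4889 peaks of all 4 lists. The genes were chosen by the caller's fold, WT over slow, since each holds 1 of the 6 regions with the highest folds recurring in both pairs. The folds and the counts of WT-higher peaks are therefore descriptions and carry no test.

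The libraries came from HEK293 cells, an established human embryonic kidney line, and were made by MeRIP-seq, in which an antibody against N6-methyladenosine (m6A) captures RNA fragments for sequencing. There were 2 libraries of slow cells, labelled as an alpha-amanitin mutant of RNA polymerase II (RNAPII) and as its slow-elongated version, and 2 of WT cells, labelled as wild type and as the control. All cells of both groups were kept in 1 µg/ml doxycycline, for 24 h alone and for a further 42 h together with 2.5 µg/ml α-amanitin, a toxin that blocks RNAPII. The series' design text speaks of cells expressing α-amanitin mutants of RNAPII, and the labels do not say which resistant form, if any, the WT cells carried, nor whether separate cultures or clones stand behind the libraries.

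Each slow library was compared with the same-numbered WT library by the authors' peak caller, in both directions, and a peak is named for the condition in which it was higher, as a slow-higher or a WT-higher peak. After duplicate removal the slow libraries of pairs 1 and 2 kept 698050 and 547402 reads and the WT libraries 1695246 and 1136611. WT depth was then 2.43 and 2.08 times slow depth, beside 1.25 and 1.71 times before removal. In pair 1, 4.25% of slow reads and 8.25% of WT reads were kept, and in pair 2, 6.22% and 7.54%. Input RNA did not enter these comparisons, so more methylation at a site and more of the transcript in WT cells cannot be told apart. The lists give positions and no expression levels, so the labelled cell type could not be set against its marker genes.

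m6A is written onto RNA, largely during transcription, by a methyltransferase complex around METTL3 and METTL14, is read by YTH-domain proteins, and in mRNA is concentrated in long internal exons and around stop codons. SHROOM3 is an actin-binding protein of epithelia that drives apical constriction, the narrowing of the upper face of a cell. GDF7, also called BMP12, is a secreted ligand of the bone morphogenetic protein family. ZNF248 is a zinc finger protein of the KRAB family, many of whose members repress transcription through the co-repressor TRIM28.

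The working description of these genes as carrying single peaks held for GDF7 only. GDF7 had 1 WT-higher peak in each pair and no slow-higher peak. SHROOM3 had 3 WT-higher peaks in each pair, of which 1 lay at the same site in both pairs. At ZNF248, pair 1 gave 2 WT-higher peaks and pair 2 gave 1, and there was also a slow-higher peak at its 5′ end in pair 1. Of the 11 WT-higher peaks in these genes, 6 overlapped a WT-higher peak of the other pair, beside a background of 29.9% of all WT-higher peaks of pair 1 and 38.5% of those of pair 2. Those 6 are the recurring sites for which the genes were chosen, so nothing is read from that count. Widening each interval by 10 kb on both sides added 0 peaks in any of the 4 lists.

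**Figure D1:**
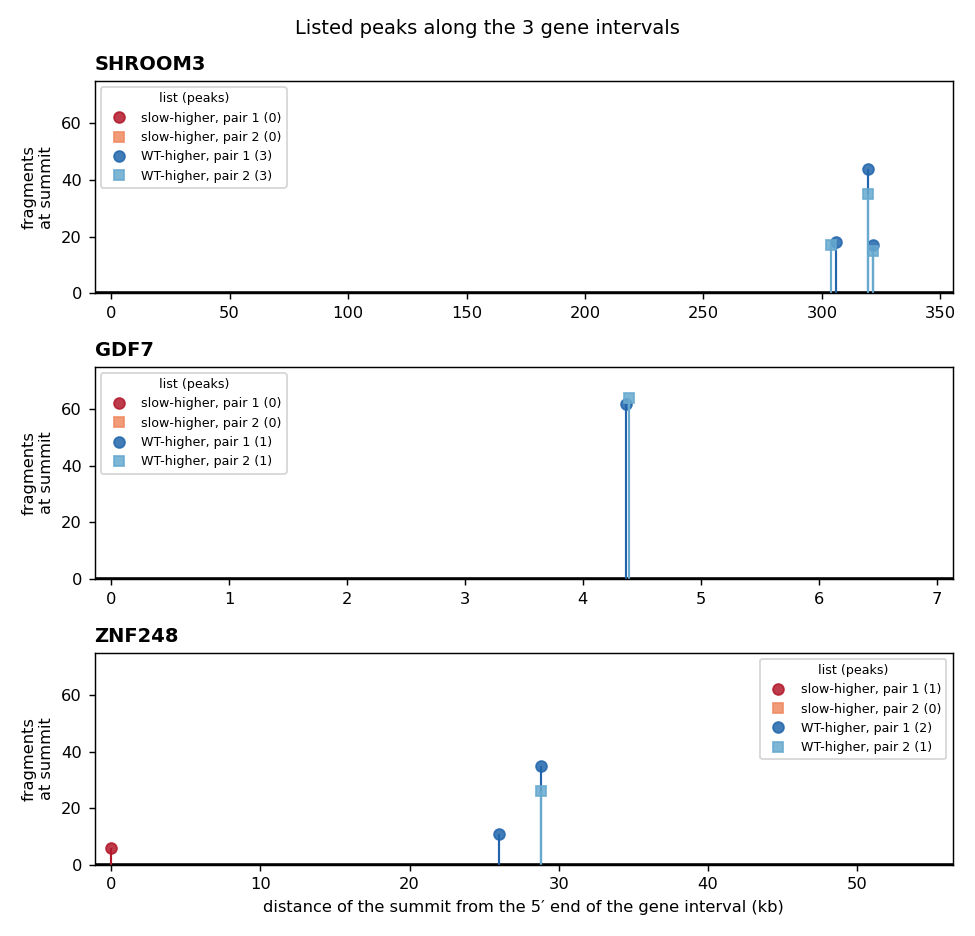
Each marker is a listed peak of SHROOM3, GDF7 or ZNF248, placed by the distance of its summit from the 5′ end of the gene interval (x axis, kb) at the number of fragments over its summit in the library where it was higher (y axis, not scaled for depth); circles are pair 1 and squares pair 2. SHROOM3 peaks sit in the last part of the gene, GDF7 has 1 site, and ZNF248 has a slow-higher peak with 6 fragments at its 5′ end and WT-higher peaks near the middle of the interval.

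SHROOM3 lies on chromosome 4 from 77356253 to 77704406 on hg19, on the plus strand, an interval of 348154 bp. Its strongest site was a peak from 77675548 to 77675789 in pair 1 and from 77675550 to 77675746 in pair 2. At the summit of this central peak, 0 slow fragments were present in either pair, against 44 WT fragments in pair 1 and 35 in pair 2. Both slow libraries were thus below both WT libraries at this position, also after WT counts are scaled to slow depth, which gives 18.1 and 16.9 fragments.

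The caller's fold for the central SHROOM3 peak, which runs WT over slow, was 14.9 in pair 1 and 13.97 in pair 2, with a mean of 14.4 ± 0.665 (SD, n = 2 pairs). It ranked 9 of 915 peaks in pair 1 and 10 of 707 in pair 2. These folds rest on a slow background of 0.282 and 0.278 fragments, to which the caller adds a pseudocount of 1. A floor of 3 slow fragments per library is near the 1-sided 95% upper limit for a count of 0. Against this floor, WT was 6.04-fold higher in pair 1 and 5.62-fold higher in pair 2. Such floor values take the WT count as exact, so they are not lower limits on the ratio. The authors' −log10 q was 21.4 and 18.1.

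The summits of the central SHROOM3 peak lay at 77675669 in pair 1 and 77675672 in pair 2, a distance of 3 bp. This is 319416 bp from the 5′ end of the interval in pair 1, or 91.7% of its length, and 28737 bp short of the 3′ end. The peak was 242 bp wide in pair 1 and 197 bp in pair 2, beside medians of 177 and 176 bp over all WT-higher peaks of the pairs.

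Weaker WT-higher peaks flanked the central SHROOM3 peak on both sides in both pairs, and none of these 4 flanking peaks overlapped between the pairs. Over all WT-higher peaks, only 29.9% of pair 1 and 38.5% of pair 2 overlapped one of the other pair, so nothing is read from that count. Upstream, the summit lay at 77662038 in pair 1, with 18 WT fragments and a fold of 7.28. In pair 2 the upstream summit lay at 77660263, with 17 WT fragments and a fold of 8.07. These upstream summits were 1775 bp apart and the peaks were separated by 1583 bp.

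Downstream of the central SHROOM3 peak, the summit lay at 77677621 in pair 1, with 17 WT fragments and a fold of 7.01, and at 77677912 in pair 2, with 15 WT fragments and a fold of 7.22. The downstream summits were closer to each other than the upstream ones, at 291 bp, with 168 bp between the peaks. All 4 flanking peaks had 0 slow fragments at the summit and folds near the medians of their lists, which were 6.89 in pair 1 and 7.002 in pair 2. The central summit held 2.44 and 2.59 times as many WT fragments as the upstream and downstream summits in pair 1, and 2.06 and 2.33 times as many in pair 2.

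The 3 SHROOM3 summits of a pair spanned 15583 bp in pair 1 and 17649 bp in pair 2, all between 87.3% and 92.4% of the way along the interval. Together the WT-higher peaks took up 562 bp of pair 1's list and 554 bp of pair 2's, or 0.161% and 0.159% of the interval. Each pair thus listed WT as higher at 3 places in the 3′ part of SHROOM3, of which the central one alone was shared by the pairs, and neither pair listed a place in the part of the gene before them. An antisense long noncoding RNA, SHROOM3-AS1, overlaps the last 73348 bp of SHROOM3 in RefSeq's GRCh38.p14 annotation, and the SHROOM3 summits all lay within 44143 bp of the 3′ end of the hg19 interval. Peaks carry no strand here, so RNA of the 2 strands cannot be told apart. SHROOM3-AS1 is 1 of 6 genes that overlap SHROOM3 in that annotation. Where the others lie relative to the peaks was not analysed.

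GDF7 lies on chromosome 2 from 20866424 to 20873418 on hg19, on the plus strand, an interval of 6995 bp. Its only peak ran from 20870687 to 20870923 in pair 1 and from 20870688 to 20871113 in pair 2. At the summit, 1 slow fragment was present in pair 1 and 0 in pair 2, against 62 and 64 WT fragments, the most of the 3 genes. Scaled to slow depth the WT counts were 25.5 and 30.8 fragments, above the slow counts in both pairs.

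The caller's WT-over-slow fold at GDF7 was 13.3 in pair 1 and 18.8 in pair 2, with a mean of 16.0 ± 3.90 (SD, n = 2 pairs). This was the widest spread between pairs of the 3 genes, and the slow background under these folds was 1.00 and 0.695 fragments. The ratio of fragments in pair 1 at equal depth was 25.5, WT over slow, with an exact 95% counting interval of 4.42 to 1024. In pair 2, against the floor of 3 slow fragments and with the WT count taken as exact, WT was 10.3-fold higher. The authors' −log10 q was 20.8 in pair 1 and 32.4 in pair 2, and the peak ranked 19 of 915 and 5 of 707 by fold.

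The GDF7 summits lay at 20870790 in pair 1 and 20870818 in pair 2, 28 bp apart and 62.4% and 62.8% of the way along the interval. In pair 2 the peak was 426 bp wide, wider than 97.5% of WT-higher peaks of that pair, and in pair 1 it was 237 bp wide, wider than 79.0%. It covered 3.39% of the gene interval in pair 1 and 6.09% in pair 2. In RefSeq's GRCh38.p14 annotation GDF7 is 12100 bp long, so these shares hold for the shorter hg19 interval only. No other WT-higher summit lay within 20 kb in either pair, which was also the case for 68.4% of all WT-higher peaks of pair 1 and 70.7% of those of pair 2. GDF7 was thus listed at a single site, as most WT-higher peaks were.

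ZNF248 lies on chromosome 10 from 38091751 to 38147034 on hg19, on the minus strand, so its 5′ end is the higher coordinate of this 55284 bp interval. The recurring WT-higher peak ran from 38118135 to 38118318 in pair 1 and from 38118057 to 38118317 in pair 2. At its summit, 0 slow fragments were present in either pair, against 35 WT fragments in pair 1 and 26 in pair 2. After scaling, the WT counts were 14.4 and 12.5 fragments, again above both slow libraries.

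The caller's WT-over-slow fold at this ZNF248 site was 13.5 in pair 1 and 13.2 in pair 2, with a mean of 13.3 ± 0.252 (SD, n = 2 pairs), the smallest spread of the 3 genes. With the floor of 3 slow fragments per library, and WT counts taken as exact, WT was 4.80-fold higher in pair 1 and 4.17-fold higher in pair 2. The authors' −log10 q was 18.9 and 23.5, and the peak ranked 15 in both lists by fold. The summits lay at 38118221 and 38118217, 4 bp apart and 52.1% of the way along the interval from the 5′ end in both pairs. In RefSeq's GRCh38.p14 annotation ZNF248 is 99566 bp long, so this relative position holds for the shorter hg19 interval only. The slow background was 0.141 fragments in pair 1 and 0.0280 in pair 2, which in pair 2 is the caller's genome-wide level of 0.0282 to within rounding.

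The other WT-higher peak of ZNF248 was found in pair 1 only, from 38120904 to 38121099, with its summit at 38121042, 2821 bp on the 5′ side of the recurring one. It had 0 slow fragments and 11 WT fragments at the summit, and a fold of 5.33 that 76.7% of the WT-higher peaks of that pair exceeded. Its −log10 q of 4.83 was the lowest of the 12 peaks. The fewest WT fragments at any listed WT-higher summit were 9 in pair 1 and 8 in pair 2, so this peak stood close to what the lists could hold, and its absence from pair 2 cannot be read as absence of signal.

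The 5′ end of ZNF248 went the other way in pair 1. A slow-higher peak ran from 38146940 to 38147095, 156 bp wide and reaching 61 bp past the end of the interval, with its summit at 38147021, 13 bp inside it. It held 6 slow fragments at the summit, against 0 WT fragments there and in the 1 kb centred on it. The fold, here slow over WT, was 6.77, near the median of 6.58 of the slow-higher peaks of that pair, and the authors' −log10 q was 9.67. Against a floor of 3 WT fragments, slow was 4.86-fold higher at equal depth. This takes the 6 slow fragments as exact and is not a lower limit on the ratio.

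The nearest WT-higher summit of ZNF248 was 25979 bp further into the gene. Pair 2 listed no slow-higher peak at this 5′ end. Over the whole slow-higher lists, 44% of peaks in pair 1 and 63.1% in pair 2 had an overlapping peak in the other list. The fewest slow fragments at any listed slow-higher summit were 3 in each pair. With 1 library of each kind behind it, the slow-higher peak has no replicate check. As at SHROOM3, RNA of either strand would be counted. In RefSeq's GRCh38.p14 annotation an antisense long noncoding RNA, ZNF248-AS1, overlaps the first 355 bp of ZNF248. It is 1 of 3 genes that overlap ZNF248 there, with ZNF33BP1 and TLK2P2. Where the others lie relative to the peaks was not analysed.

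RefSeq's window around the outermost start of ZNF248, 250 bases before to 50 after it, is printed because the slow-higher peak lay on the 5′ end of the gene. It is given 5′ to 3′ on the minus strand of GRCh38.p14, at chr10:37858054-37858353, and since the peak is placed on hg19 it was not aligned to these bases. Capitals mark GGACT, the commonest form of the m6A consensus written as DNA, on either strand (AGTCC is the same letters on the other strand, and the matches do not overlap).
ZNF248 start window: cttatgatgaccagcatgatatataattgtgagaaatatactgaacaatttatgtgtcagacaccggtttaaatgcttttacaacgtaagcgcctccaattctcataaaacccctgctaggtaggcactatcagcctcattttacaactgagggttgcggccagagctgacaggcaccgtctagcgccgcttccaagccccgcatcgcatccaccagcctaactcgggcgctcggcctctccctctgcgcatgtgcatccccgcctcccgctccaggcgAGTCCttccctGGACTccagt
GGACT began at base 291 of this window and AGTCC at base 280, both in the 50 bases after the annotated start. A match on either strand was present in 44.2% of the 35116 RefSeq windows of the same length, so holding a match is not unusual. The share of windows with 2 matches, or with matches in the last 50 bases, was not computed. The GC content of the ZNF248 window was 53%, beside a median of 58.7%. RefSeq lists 3 such windows for ZNF248, and which start the HEK293 transcripts used was not analysed here.

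**Figure D2:**
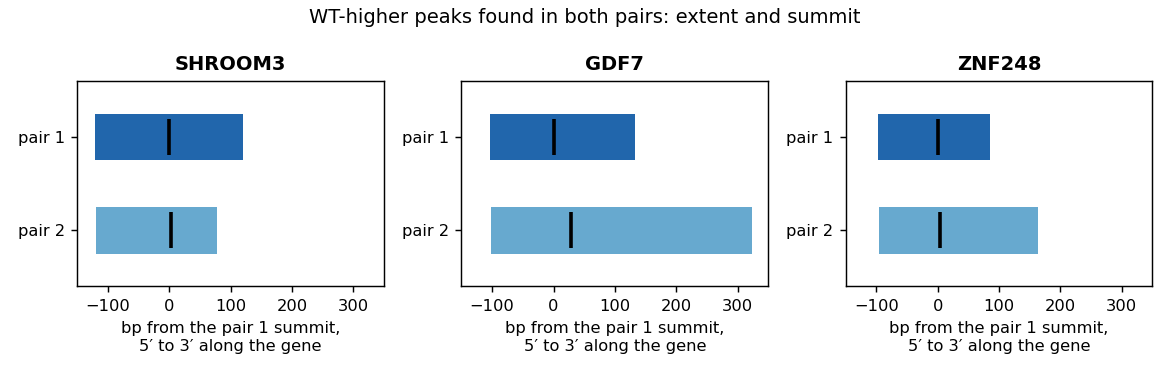
Bars show the extent of the WT-higher peak found in both pairs at SHROOM3, GDF7 and ZNF248, and black ticks its summit, in bp from the pair 1 summit and read 5′ to 3′ along each gene (x axis), with pair 1 above pair 2. The 5′ edges of the pairs differ by 2, 1 and 1 bp, while the 3′ edges differ by 43, 190 and 78 bp.

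The 2 pairs placed the recurring sites with unequal precision at the ends of each peak. The edge nearer to the 5′ end of the gene differed between pairs by 2 bp at SHROOM3, 1 bp at GDF7 and 1 bp at ZNF248. The other edge differed by 43, 190 and 78 bp at the same genes. Among the 270 reproducible WT-higher regions, meaning connected WT-higher peaks of both pairs with no slow-higher peak on them, 52 (19.3%) had either edge within 2 bp, and the median distance of the closer edge was 10 bp. The bases shared by both pairs made up 81.4% of the joined region at SHROOM3, 55.3% at GDF7 and 69.8% at ZNF248, beside a median of 74.0%.

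Summit distances of 3 bp at SHROOM3 and 4 bp at ZNF248 were below the median of 12 bp over the 270 regions, and the 28 bp at GDF7 was above it. A distance as small or smaller was found in 27.8%, 32.2% and 69.3% of regions for SHROOM3, ZNF248 and GDF7. The log2 fold of pair 2 minus that of pair 1 was -0.09 at SHROOM3, 0.50 at GDF7 and -0.04 at ZNF248, beside a median absolute gap of 0.36. By these measures the pairs were closer than the median region at SHROOM3 and ZNF248, and further apart than it at GDF7. The agreement in fold depends on the scaling. With WT scaled by the reads before duplicate removal, the folds of pairs 1 and 2 were 28.2 and 16.8 at SHROOM3, 25.4 and 15.7 at ZNF248, and 25.3 and 22.6 at GDF7, which then had the closest pair of folds.

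**Figure D3:**
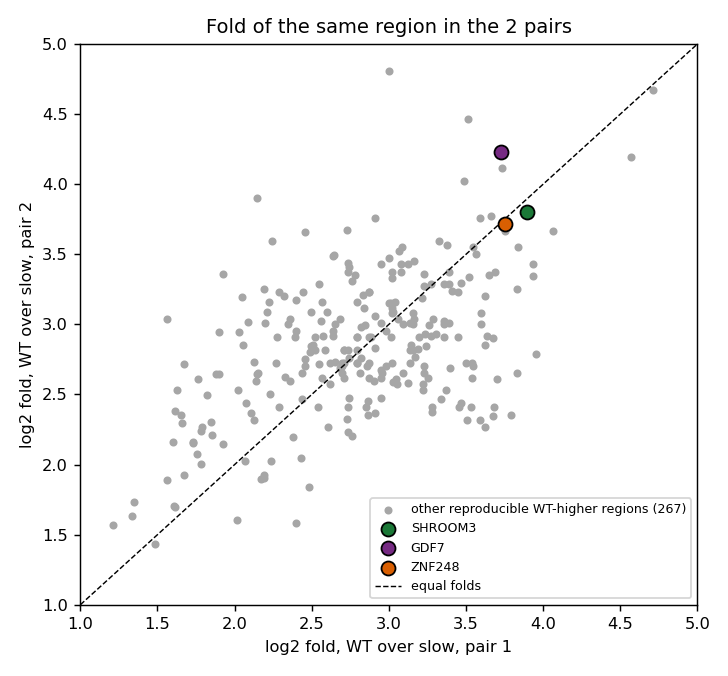
Each point is 1 of the 270 reproducible WT-higher regions, with its log2 fold, WT over slow, in pair 1 (x axis) and pair 2 (y axis); the dashed line marks equal folds. SHROOM3 (14.9-fold and 13.97-fold) and ZNF248 (13.5-fold and 13.2-fold) lie on the line, and GDF7 (13.3-fold and 18.8-fold) lies above it.

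Ranked by the lower of the 2 folds, SHROOM3, GDF7 and ZNF248 stood at 3, 5 and 6 of the 270 regions. Next above SHROOM3 was a region on chromosome 14 from 23587546 to 23588638, at 23.8-fold and 18.3-fold. Next below ZNF248, just outside the 6, came regions with the same lower fold of 12.7, on chromosome 14 from 99641254 to 99641678, at 16.8-fold and 12.7-fold, and on chromosome X from 84501903 to 84502140, at 13.5-fold and 12.7-fold. The lower fold of ZNF248 was 13.2, so the boundary does not mark a gap. By the mean of the 2 folds the order changes. The chromosome 14 region from 99641254 had a mean of 14.7, above SHROOM3 at 14.4 and ZNF248 at 13.3.

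By distance in the log2 folds of both pairs, ZNF248 was the region most like SHROOM3 (distance 0.17). ZNF248 itself was nearest to a region on chromosome X from 84501903 to 84502140, with folds of 13.5 and 12.7 (distance 0.05), which was also the second nearest to SHROOM3 (distance 0.20). The next nearest to ZNF248 lay on chromosome 6 from 17764623 to 17764814, with folds of 12.7 and 13.7 (distance 0.11). GDF7 was nearest to chromosome 12 from 65268924 to 65269566, with folds of 13.3 and 17.4 (distance 0.11), and next to chromosome 14 from 95234668 to 95234964, with folds of 11.4 and 22.1 (distance 0.32). Likeness here is over 2 pairs only, and each fold has 1 library on either side.

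Whether the rest of each transcript also differed was not resolved by these files, but the slow background that the caller used at each summit limits how many slow fragments lay around it. That background is the highest of the slow fragments over the summit, those in windows around it, and the genome-wide level, so it caps each of them. The windows are centred on the summit, 1 kb and 10 kb in full width, and their counts are scaled to a fragment's length. All 915 and 707 WT-higher backgrounds matched a whole number of fragments in 1 of these windows, or the genome-wide level, within rounding. No such cap exists for the WT libraries away from their peaks, so only fragments over listed WT summits can be set beside it. These are the peaks by which the genes were chosen or their neighbours, and the comparison says nothing of WT RNA outside them. Where several listed summits fall in 1 window, the lowest cap of the windows that hold them all is given.

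A window of 10 kb that holds the listed WT-higher summits of ZNF248 had at most 2 slow fragments in each pair. Over the summits in that window there were 46 WT fragments in pair 1 and 26 in pair 2, or 18.9 and 12.5 at slow depth. The background behind this cap was the genome-wide level to within rounding in both pairs, so no lower cap was possible. Centred on the recurring summit, the cap in pair 1 was 10. These windows leave out most of the interval, including the 5′ end with the slow-higher peak of pair 1.

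At SHROOM3, the 10 kb centred on the downstream summit also holds the central one, and at most 10 slow fragments lay there in each pair. Centred on the central summit, the 10 kb cap was 20 in each pair, above its 18.1 and 16.9 WT fragments at slow depth. In the 1 kb centred on that summit there were at most 2 slow fragments. The background there matched 2 slow fragments in 1 kb as well as 20 in 10 kb, so the cap of 20 is not read as slow RNA. The central and downstream WT summits together held 61 fragments in pair 1 and 50 in pair 2, or 25.1 and 24.1 at slow depth. The 10 kb centred on the upstream summit held at most 11 slow fragments in pair 1 and 10 in pair 2. No cap is given for the first 87.3% of the gene, which had no listed peak.

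For GDF7 the whole hg19 interval falls inside the 10 kb window. The cap was 70 slow fragments in pair 1 and 50 in pair 2, above the 25.5 and 30.8 WT fragments at slow depth over its summit. In pair 1 the background of 1.00 matched the 1 slow fragment over the summit. The 10 kb cap of that pair is therefore loose and is not read as slow RNA around the summit. In pair 2 the background of 0.695 matched 5 slow fragments in 1 kb as well as 50 in 10 kb. Its 10 kb cap is not read as slow RNA either. In the 1 kb centred on the summit at most 7 and 5 slow fragments lay, below the WT counts.

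**Figure D4:**
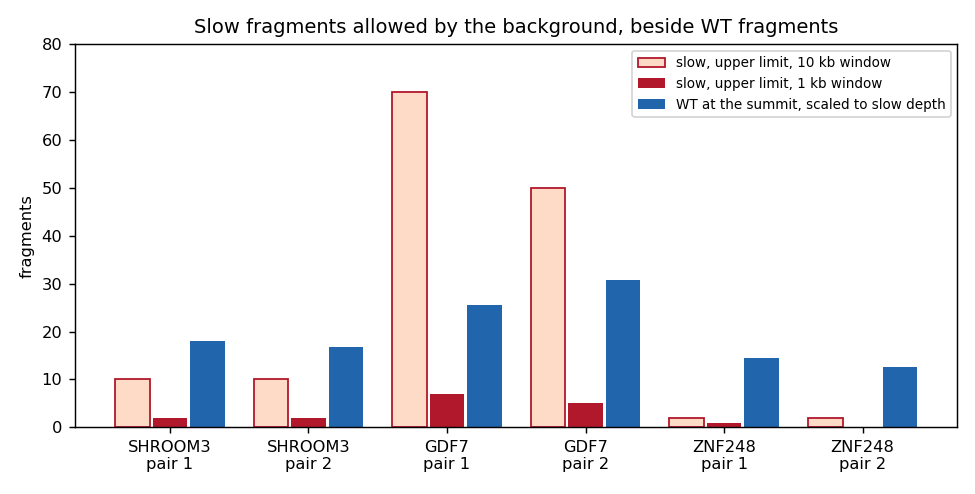
For each gene and pair, pale bars give the most slow fragments that the background allows in a 10 kb window that holds the recurring summit. Dark red bars give the same for the 1 kb centred on it, and blue bars the WT fragments over that summit scaled to slow depth (y axis, fragments). WT at the summit exceeds the slow limit for 1 kb in all 6 cases, and the limit shown for 10 kb at SHROOM3 and ZNF248 but not at GDF7. At SHROOM3 the 10 kb window shown is centred on the downstream summit. Centred on the recurring summit its limit was 20 in each pair, above WT. These limits are not counts of slow fragments.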

How the data were processed

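The files are 4 peak lists of m6A-immunoprecipitated libraries. Reads were aligned with TopHat2 to hg19, per the submitters' processing notes. Per the file headers, the authors' peak caller was MACS 2.1.1.20160309 and its limit on the q-value was 0.01. Each call set 1 library against the same-numbered library of the other condition, with 1 read kept per position and strand and replicates not pooled. Duplicate removal kept between 4.25% and 8.25% of reads. The deposited pileup is a coverage signal over the summit, scaled to the smaller library, and dividing by the scale gave whole fragments (within 0.05) for all peaks. The deposited fold ratio is (pileup + 1) over (background + 1), from which the control background was computed. The authors' p-values and q-values are given as −log10 in columns whose names were lost; they were told apart by the caller's column order.

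Gene intervals and lists were chosen with earlier results of these data known. Genes named are the 3 members, the regions ranked beside them, and the 2 regions nearest in log2 fold. No annotation of hg19 was used here, so exons, UTRs and gene names of other regions, and the other pathway genes planned, were not analysed here. Strands came from RefSeq. Counting intervals are exact and 2-sided (Clopper-Pearson, 95%), whereas the floor of 3 fragments is 1-sided. Both cover counting error only. Where nothing says libraries came from separate cultures, spreads may be technical. The joining of peaks and regions was tested on simulated data. Python 3.11.15, pandas 2.3.3 and scipy 1.17.1 were used.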

Additional observations from a re-analysis of the deposited data

How the results depend on the processing

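Of 54 alternatives to 13 results, 38 stayed within the spread between pairs (for counts, within 1.5 times), 16 moved further, and 0 reversed a direction. Part of this was fixed in advance. With 2 pairs, either pair alone always lies within 1 SD of their mean. Leaving out a pair could therefore not move a fold, width or share, and the widths had no other alternative. The folds were chosen as WT-higher, so the lack of reversals is no test of them. The WT-over-slow folds depend on the pseudocount and the scaling. For SHROOM3, GDF7 and ZNF248 the mean folds were 23.1, 21.8 and 24.0 with a pseudocount of 0.5, 8.55, 10.7 and 7.41 with a pseudocount of 2, and 22.5, 24.0 and 20.6 when WT was scaled by reads before duplicate removal. GDF7, with the highest slow background, had the highest mean fold of the 3 genes except with the pseudocount of 0.5, where it had the lowest. Slow-higher peaks at ZNF248 numbered 0.5 per pair, and 0 to 1 when either pair was left out. WT-higher peaks at ZNF248 numbered 1.5 per pair, and 1 where −log10 q had to reach 5. The share of peaks alone was 44.2% for slow-higher and 69.6% for WT-higher within 20 kb, 47.7% and 72.5% within 10 kb, and 38.3% and 64.5% within 50 kb. It was 73.8% for WT-higher where −log10 q had to reach 5. All 3 recurring sites were also found in both pairs when 50% reciprocal overlap, or summits within 100 bp, was required. No paired analysis was possible because each list is already 1 pair and gives no per-library value at every site. Depth limits what can be listed: slow counts were 0 or 1 at the recurring summits, and the WT-higher lists of pairs 1 and 2 hold no site below 9 and 8 WT fragments.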
